A study of Mus musculus with 2 samples.

Results

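The regions described here are open chromatin sites at the 3′ ends of protein-coding genes in the mouse cerebral cortex. They are 473 of the 63270 autosomal regions found in both libraries of the study (64789 with the sex chromosomes, out of 105529 merged regions). The shorter deposited peak lists of both libraries were pooled and joined where peaks touched, and a joined region counted as shared if both libraries contributed a peak. A shared region was kept when its midpoint lay within 500 bp of the annotated end of a protein-coding gene in GENCODE M21, lay outside coding sequence, and no base of the region came within 500 bp of a transcription start site. The rule used position only, so the height of the peaks played no part in it beyond their presence in both lists. The 473 regions lay at the ends of 504 of 20807 autosomal protein-coding genes, 2.42%.

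DNase-seq, which maps where the nuclease DNase I can cut chromatin, was applied to the right cerebral cortex of female B6CASTF1/J mice, first-generation hybrids of a C57BL/6J and a CAST/EiJ parent, aged 18 to 20 months. There was 1 group with 2 biological replicates, untreated as far as the labels say, and no control. Both replicates carry the same donor identifier, and nothing in the labels says that they came from separate animals, so the spread between them may be technical. Every value below is the deposited height of a peak, a signal whose normalization no source used here states. Values were whole multiples of 1 step in each library, within 0.05 steps, with a step of 0.00497 in replicate 1 and of 0.00892 in replicate 2. If each step stands for 1 read in counts per M (mega) reads, the depths were 201 M and 112 M reads, the median gene-end region rested on 178 and 160 reads, and the lowest on 58 and 34. With tissue of mixed cells, more cells of a type and more opening per cell cannot be told apart. Reads of both parental genomes were placed on 1 reference, and the effect of that on a given region was not tested.

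Markers of the labelled tissue were compared with all coding genes, of which 59.1% had a promoter peak in both replicates. Promoters of neuronal genes had one for 16 of 16 genes, those of excitatory cortical neurons for 13 of 17, of inhibitory neurons for 8 of 17 and of astrocytes for 10 of 16. Oligodendrocyte (7 of 16), microglial (4 of 17) and endothelial (4 of 13) promoters lay under the share of all genes, as those of inhibitory neurons did, and no hepatocyte promoter of 13 had one. Lists of genes used by every cell, such as ribosomal proteins (28 of 28), also reached 100%.

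The 3′ end of a gene is where the transcript is cut and polyadenylated, usually downstream of the hexamer AATAAA, and where the polymerase is released after reading on past the cleavage site. Open sites there can be enhancers of the same or another gene, starts of unannotated or antisense transcripts, or boundaries bound by CTCF, a zinc-finger protein that stops cohesin and so shapes chromatin loops. In neurons, 3′ untranslated regions (UTRs) are often long, so that an annotated end can differ between tissues.

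Sequences of different kinds are shown because the results below turn on them. The first are matches to a core consensus of CTCF, 12 letters long, that lay inside a footprint, a short stretch protected from cutting within an open site, in both replicates. They come from the 8 strongest such regions, and each is printed 5′ to 3′ on the strand of the motif from the GRCm38 (mm10) sequence, with the match in capitals and 9 bases on either side.
Thbs4: cccaggcctCCTGTAGGGGGCgctgtcagc
Dand5: cgcttttagCCACTAGGTGGCaccgcgtcc
1700029H14Rik: gaatctgaaCCACCAGAGGGCaccatcaga
Acvrl1: gcgcattggCCAGCAGAGGGCgacgtggct
Ripor1: gagctgtcgCCACCAGGGGGCagcagaact
Mtch2: acctgtccaCCACCAGAGGGCagcagaact
Sncb: cctttcctgCCAGGAGGTGGCgcctgatgc
Pitx3: tcccagagaCCACCAGGTGGCgtcgcagca
The 30 printed bases at Thbs4 span chr13:92751886-92751915 (plus strand), those at Dand5 chr8:84815722-84815751 (minus), those at 1700029H14Rik chr8:13551140-13551169 (plus) and those at Acvrl1 chr15:101145555-101145584 (minus). Those at Ripor1 span chr8:105622557-105622586 (plus), those at Mtch2 chr2:90866710-90866739 (plus), those at Sncb chr13:54758627-54758656 (plus) and those at Pitx3 chr19:46135438-46135467 (plus). The matches at Thbs4 and 1700029H14Rik are intronic, those at Dand5 and Mtch2 are in the gene's own 3′ UTR, and the one at Pitx3 is past the end of that gene and in a 3′ UTR annotated there. The Acvrl1 and Sncb matches are intergenic, and the Ripor1 match is in an intron annotated past the gene's end.

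The second kind are whole regions, chosen among the strongest that overlap no annotated exon, and printed on the strand of the gene. Capitals mark the GC box GGGCGGG (on either strand), the E-box CAGNTG and the CTCF consensus where they occur in the central 200 bp.
Fam120a: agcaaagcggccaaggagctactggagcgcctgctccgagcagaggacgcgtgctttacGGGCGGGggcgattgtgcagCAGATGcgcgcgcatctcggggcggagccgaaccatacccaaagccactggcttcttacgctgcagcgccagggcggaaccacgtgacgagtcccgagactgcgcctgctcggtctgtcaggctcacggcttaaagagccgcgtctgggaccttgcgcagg
Sec14l2: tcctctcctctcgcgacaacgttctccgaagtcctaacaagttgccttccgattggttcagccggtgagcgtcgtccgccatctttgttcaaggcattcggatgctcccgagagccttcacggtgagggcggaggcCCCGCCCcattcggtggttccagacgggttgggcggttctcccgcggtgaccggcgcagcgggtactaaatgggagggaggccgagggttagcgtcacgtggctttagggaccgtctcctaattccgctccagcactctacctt
Thbs4: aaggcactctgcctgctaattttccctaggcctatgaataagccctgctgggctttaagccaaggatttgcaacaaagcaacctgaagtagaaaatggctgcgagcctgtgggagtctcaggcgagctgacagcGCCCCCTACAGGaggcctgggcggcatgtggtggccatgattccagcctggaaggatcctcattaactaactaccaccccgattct
Fndc5: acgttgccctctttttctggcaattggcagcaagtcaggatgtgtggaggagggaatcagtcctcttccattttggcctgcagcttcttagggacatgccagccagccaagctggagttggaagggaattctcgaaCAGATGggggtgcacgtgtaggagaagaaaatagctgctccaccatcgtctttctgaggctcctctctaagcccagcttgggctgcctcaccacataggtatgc
The Fam120a region spans chr13:48878661-48878900 (minus strand), with its midpoint 438 bp past the gene's end, and is 65.8% G and C. The Sec14l2 region spans chr11:4096581-4096860 (minus), 318 bp past the end, with 61.4%. The Thbs4 region spans chr13:92751821-92752040 (minus), 341 bp before the end, with 54.1%. The Fndc5 region spans chr4:129144621-129144860 (plus), 148 bp past the end of the gene for the precursor of irisin, with 53.3%. The first pair are CpG-dense, with 23 and 21 CpG sites in the central 200 bp, and the second pair are not, with 4 and 3.

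Gene ends were about as dense in open regions as their surroundings. Distinct ends (20685, after ends within 100 bp of each other were taken as 1) were lined up, and region midpoints were counted per Mb of sequence at which the rule could have placed one, that is, outside coding sequence and more than 600 bp from start sites (500 bp plus 100 bp for the reach of a typical region). Within 500 bp there were 27.5 midpoints per Mb (95% exact Poisson interval 25.2 to 30.04, 499 midpoints, since a region near several ends counts at each), against 28.2 (27.1 to 29.2) at 2000 to 5000 bp, a ratio of 0.977 (1.04 with only the stronger 50% of peaks). The intervals cover counting error only.

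The profile was uneven close to the end itself. In the last 100 bp of the gene the density was 12.5 per Mb (7.91 to 18.7, 23 midpoints), the lowest of the 100 bins between 5000 bp upstream and 5000 bp downstream, and this stretch was 37.5% G and C. It was 22.3 per Mb (16.1 to 30.01) in the first 100 bp past the end, at 42.7% G and C, and 39.7 (31.3 to 49.7, 76 midpoints) at 200 to 299 bp past it, at 45.3%. Other bins within the 500 bp ranged between 27.1 and 30.8. G and C content moved with the density in the last 100 bp, and its part in the dip was not tested. The second-lowest bin, 901 to 1000 bp upstream, had 14.3 per Mb. The bin at 200 to 299 bp past the end was not the highest. Bins farther downstream had 42.4 per Mb at 2100 to 2199 bp and 41.1 at 3200 to 3299 bp.

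**Figure D1:**
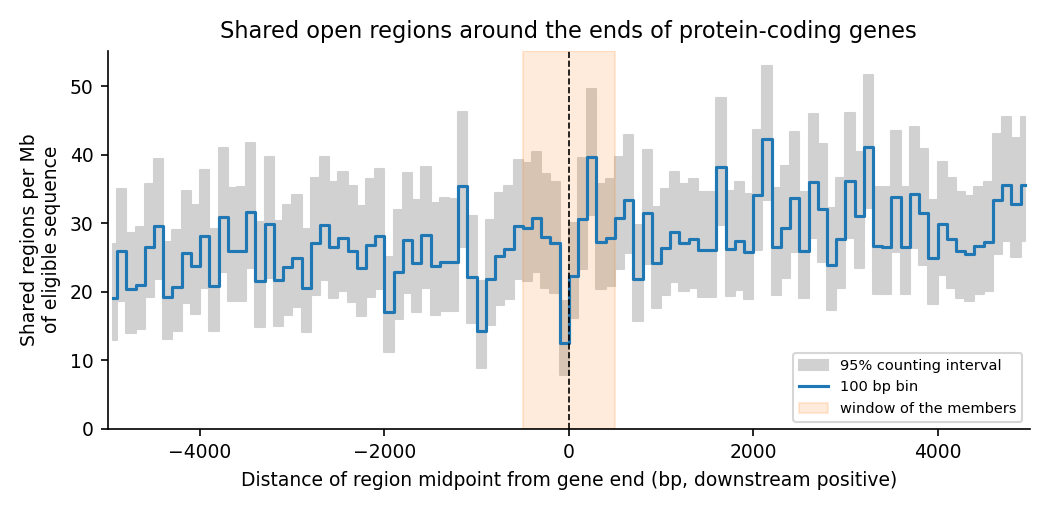
Midpoints of shared open regions per Mb of eligible sequence in 100 bp bins, by distance from the end of protein-coding genes (negative upstream, positive downstream), with 95% exact Poisson intervals in grey and the 500 bp window shaded. The bin just before the end is the lowest, at 12.5 per Mb, and the window as a whole (27.5) is close to the 28.2 found at 2000 to 5000 bp.

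A call that does not use the peak lists, though it comes from the same libraries, also put gene ends close to their surroundings. Of windows within 500 bp of an end, 3.80% (688 of 18116, 3.52% to 4.09%) held an interval whose deposited false discovery rate was below 0.001 in both replicates. The share was 3.98% (697 of 17530, 3.69% to 4.28%) of windows 2000 to 3000 bp downstream. It was 3.41% (539 of 15796, 3.13% to 3.71%) of those as far upstream.

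Of the 473 regions, 270 had their midpoint downstream of the gene end (57.1%, exact binomial 95% interval 52.5% to 61.6%) and 203 at or before it. Per Mb of eligible sequence the sides were closer, at 29.6 (26.2 to 33.2) downstream and 25.2 (22.0 to 28.8) upstream. By annotation, 221 midpoints (46.7%) were intergenic, 183 (38.7%) in a 3′ UTR, 60 in an intron and 9 in another exon, and 82 regions covered the end base itself. The median was 0.905 in replicate 1 and 1.44 in replicate 2 for intergenic regions, 0.860 and 1.39 in 3′ UTRs, 0.842 and 1.35 in introns, and 1.15 and 1.78 for the 9 in another exon.

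Some ends are shared. A converging coding gene, transcribed towards the first and ending within 1000 bp, was present at 46 regions (9.73%, 7.21% to 12.8%), against 9.39% of all autosomal coding genes. Such regions had medians of 0.952 and 1.47 in replicates 1 and 2, against 0.885 and 1.43 at ends without one. One region lay 278 to 281 bp past the ends of 21 genes of the gamma protocadherin cluster on chromosome 18, cell-adhesion genes whose transcripts splice variable first exons to common last ones. Its values were 0.954 in replicate 1 and 1.88 in replicate 2. In all, 442 regions had 1 coding gene end within reach and 30 had a pair, and 19 genes had 2 regions each.

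Most ends were those of coding transcripts. For 446 regions the gene end was that of a protein-coding transcript, and for 27 only that of another transcript type of the gene. Of 451 nearest genes found in RefSeq, 385 (85.4%) ended within 500 bp of the same place there. A RefSeq start site lay within 500 bp of 17 regions that GENCODE left clear, among them both regions of Hes7, a repressor of the segmentation clock, and the one at Jund, an AP-1 subunit. These 17 had medians of 1.17 in replicate 1 and 1.86 in replicate 2, against 0.885 and 1.41 for the other 456.

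Gene-end regions were peaks of middling height. Their median value was 0.885 in replicate 1 (quartiles 0.641 and 1.30) and 1.43 in replicate 2 (0.963 and 2.18). Flanking regions, shared regions over 500 and up to 5000 bp from a coding gene end and outside promoters and coding sequence, had medians of 0.865 and 1.36 (n = 3597). Remote regions, farther away still, had 0.746 and 1.04 (n = 40174). Regions in coding sequence had 0.775 and 1.16, and promoters, within 500 bp of a start site, 1.46 and 2.20 (n = 18025). In the highest 25% of all autosomal shared regions, by mean log2 value, stood 111 gene-end regions (23.5%), against 20.3% of flanking regions, 13.2% of remote ones and 52.7% of promoters. In both libraries the gene-end median lay nearest to that of flanking regions.

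**Figure D2:**
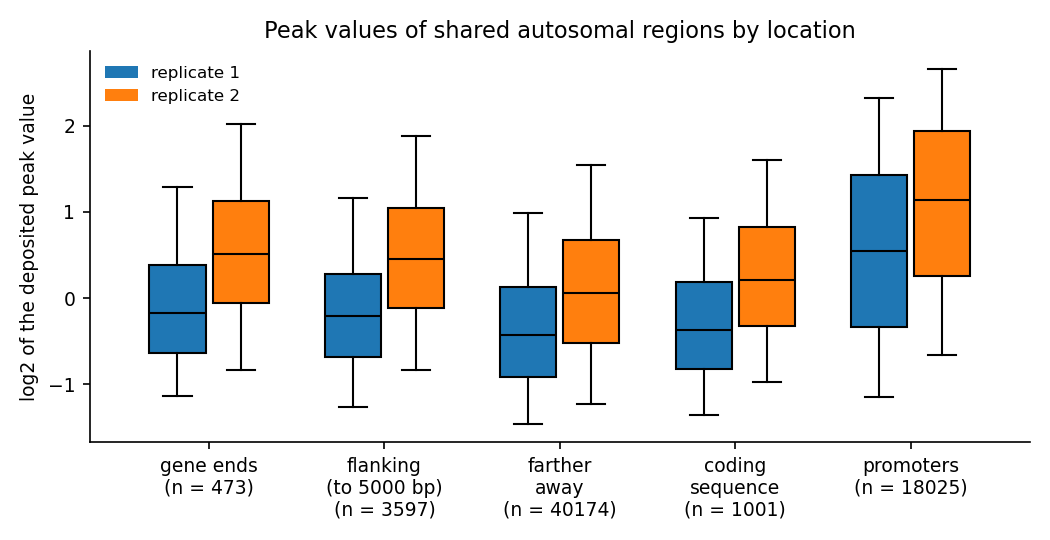
Log2 of the deposited peak value of shared autosomal regions by location, for replicates 1 and 2, with boxes from the lower to the upper quartile, a line at the median and whiskers at the 5th and 95th percentiles of regions. Gene-end regions (medians 0.885 and 1.43 before taking logs) are close to flanking regions (0.865 and 1.36) and under promoters (1.46 and 2.20).

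Footprints were found in nearly all. In both replicates 445 of 473 regions touched one (94.1%, 91.6% to 96.0%), against 93.4% of flanking regions, 89.7% of remote ones, 88.2% of promoters and 89.5% of all autosomal shared regions. They covered 15.6% of the bases of gene-end regions in replicate 1 and 18.3% in replicate 2, against 14.8% and 17.3% of flanking regions, 12.6% and 13.5% of remote ones, and 15.7% and 18.6% at promoters. The mean number of footprints per region was 2.85 in replicate 1 and 2.91 in replicate 2. It was 2.79 and 2.79 in flanking regions, 2.74 and 2.60 in remote ones, 2.93 and 2.92 in coding sequence and 3.99 and 4.14 at promoters. By covered bases the gene-end regions thus lay closer to promoters than to flanking or remote regions. By number of footprints they lay closer to flanking, remote and coding regions than to promoters.

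The strongest gene-end region stood in repeat sequence. At Gm10722, a predicted gene, it had 14.2 in replicate 1 and 11.1 in replicate 2, about the 99.98th percentile of shared regions. It lies at chr9:3002041-3002220, 2040 bp from the first sequenced base of that chromosome in the assembly, and all of its bases (100%) are marked as repeats. Reads of repeats can map to several places, and the effect on this value was not tested. Only 9 of the 473 regions (1.90%) were marked as repeats over at least 50% of their central bases.

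The next strongest regions had values that the libraries shared more or less closely. The Fam120a region, past the end of a gene for an RNA-binding protein, had 4.69 in replicate 1 and 7.05 in replicate 2. That in the 3′ UTR of Bcat2, the mitochondrial aminotransferase of branched-chain amino acids, had 5.01 and 5.64. It held 7 footprints in each replicate. The Sec14l2 region, past the end of a gene for a lipid-transfer protein, had 4.63 and 5.72.

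The Fbxl19 region, in the 3′ UTR of a gene whose F-box protein binds CpG islands, had 4.49 in replicate 1 and 4.35 in replicate 2. It lies 635 bp from the nearest start site, just beyond the limit of the rule. In contrast to these, Slc16a5, of the monocarboxylate transporter family, had 2.47 and 8.44. Rtn2, a reticulon that shapes the endoplasmic reticulum, had 2.77 and 7.23. The libraries thus ranked these last regions differently, with a log2 difference (replicate 1 minus replicate 2) of -1.78 at Slc16a5 and -1.39 at Rtn2.

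Thbs4, which encodes the extracellular matrix protein thrombospondin 4, had 2.84 in replicate 1 and 5.75 in replicate 2 at its region before the end, and 1.02 and 1.60 at a weaker one 389 bp past it. Meltf, an iron-binding membrane protein gene, had 2.92 and 5.18. Dand5, which encodes a secreted antagonist of Nodal signalling, had 2.44 and 5.64. The promoters of Slc16a5, Thbs4, Meltf and Dand5 held no peak of the shorter list of either library. Those of Fam120a (1.40 and 2.02), Bcat2 (0.785 and 1.67), Sec14l2 (1.36 and 2.51) and Rtn2 (1.51 and 1.82) did, each weaker than the region at the end in both replicates. The promoter of Fbxl19 (5.79 and 5.30) was stronger than its end in both.

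Such an order was not the usual one. Among 298 regions whose nearest-end gene had a promoter peak in both replicates, the end was the stronger of the pair in both for 37 (12.4%, 8.89% to 16.7%), in replicate 1 for 48 (16.1%) and in replicate 2 for 60 (20.1%). The median log2 ratio of end over promoter was -1.15 in replicate 1 and -1.08 in replicate 2. The promoter value was that of the strongest peak within 500 bp of any start site of the gene. A gene with several start sites thus set its highest promoter against a single end region, and the effect on the ratio was not tested.

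**Figure D3:**
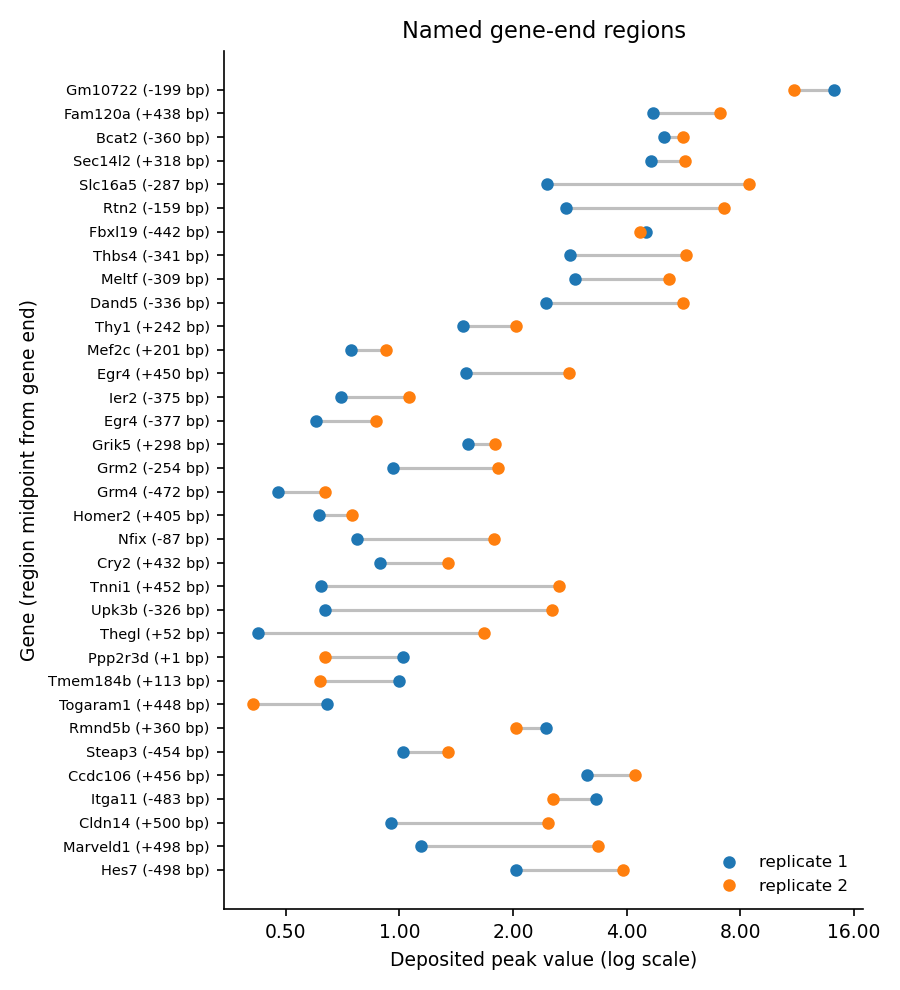
Deposited peak values (log axis) of the named gene-end regions in replicate 1 (blue) and replicate 2 (orange), with the distance of each midpoint from the gene end. Most regions were higher in replicate 2, while Gm10722, Fbxl19, Ppp2r3d, Tmem184b, Togaram1, Rmnd5b and Itga11 were higher in replicate 1.

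Promoter state and the hexamer at the end lay near the levels of other genes, while the median gene length was higher. A promoter peak in both replicates was present for 314 of the 504 genes (62.3%, 57.9% to 66.5%), against 59.0% of genes without such a region and 59.1% of all 20807. No promoter peak in the shorter list of either library was found for 163 (32.3%, 28.3% to 36.6%), against 37.0% of genes without such a region. The 504 genes had a median length of 20.6 kb, against 17.6 kb for genes without such a region. The hexamer AATAAA stood in the last 50 bases of 58.1% of the 504 (53.7% to 62.5%), against 58.7% of the other genes. The 504 include 21 gamma protocadherin genes that share an end, which these shares and intervals count as independent genes.

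Few genes of the pathway lists had an open end. Of 336 autosomal genes on 18 lists, 10 did (2.98%), next to 2.42% of all coding genes. Glutamate receptors gave 3 of 21, activity-regulated genes 2 of 26, and the neuronal, excitatory neuron, postsynaptic scaffold, neuronal regulator and clock lists 1 each. The lists for inhibitory neurons, astrocytes, oligodendrocytes, microglia, endothelium, hepatocytes, synaptic vesicle release, potassium channels, cleavage and polyadenylation, ribosomal proteins and housekeeping gave 0.

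Among receptors, Grik5, a kainate receptor subunit, had 1.52 in replicate 1 and 1.79 in replicate 2 at a region 298 bp past its end, which exceeded its promoter (1.14 and 1.29). Grm2, the presynaptic metabotropic receptor mGluR2, had 0.959 and 1.82 at a CTCF-matching site in its 3′ UTR. Grm4, the related mGluR4, had 0.477 and 0.633 in an intron before the end. Neither metabotropic gene had a promoter peak in the shorter list of either library. Homer2, a postsynaptic scaffold gene, had 0.611 in replicate 1 and 0.749 in replicate 2.

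Egr4, an immediate early zinc-finger gene, had a region past its end with 1.501 in replicate 1 and 2.81 in replicate 2, and a weaker one in its 3′ UTR with 0.601 and 0.865. Both stood under its promoter (3.75 and 4.24). Ier2, another immediate early gene, had 0.701 and 1.06 in its 3′ UTR, under a promoter of 2.52 and 4.12. These genes are short, and the regions lay 2809, 1909 and 1032 bp from the nearest start site. Thy1, a surface protein of neurons, had 1.47 and 2.03, against 1.75 and 1.70 at its promoter.

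Mef2c, a transcription factor of excitatory neurons, had 0.746 in replicate 1 and 0.918 in replicate 2, a faint region 201 bp past the end. Nfix, of the nuclear factor I family, had 0.770 and 1.78 in an exon 87 bp before it. Cry2, a clock repressor, had 0.890 and 1.35 past the end and no footprint in replicate 1 but 3 in replicate 2. All 3 of these lay under their promoters, the strongest being that of Cry2 at 5.24 and 6.79.

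Matches to 11 motifs were counted. The CTCF consensus was found in the central 200 bp of 100 gene-end regions (21.1%, 17.5% to 25.1%), against 19.9% of flanking regions (18.6% to 21.3%), 10.9% of remote ones (10.6% to 11.2%), 10.9% in coding sequence, 5.22% of promoters and 9.87% of all autosomal shared regions. The consensus read backwards without complementing, a string of the same letters, was found in 1 gene-end region (0.211%). The printed matches hold no CpG and end in GGC, which read backwards starts with CG. A reversed match of this kind thus needs a CpG. It was in 0.105% of remote regions and 0.560% of promoters, so it does not measure the share expected by chance. The share of the consensus at gene ends was above that of remote regions, and its interval overlapped that of flanking regions. In 75 of the 100 regions a match lay wholly inside a footprint in both replicates (65.3% to 83.1%), against 72.5% of flanking and 68.1% of remote regions with a match. A footprint of replicate 1 held a match in 78 regions and one of replicate 2 in 90.

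CTCF matches were spread over both sides of the end. They stood in 26 of 117 regions more than 250 bp before it (22.2%), 10 of 86 in the last 250 bp (11.6%, 5.72% to 20.3%), 28 of 126 in the first 250 bp past it (22.2%) and 36 of 144 more than 250 bp past it (18.2% to 32.9%). The intervals of the lowest and highest overlap. The 100 regions held 103 matches, of which 53 were on the strand of the gene. By place the count was 32 of 183 in 3′ UTRs (17.5%), 15 of 60 in introns and 52 of 221 in intergenic sequence (23.5%).

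**Figure D4:**
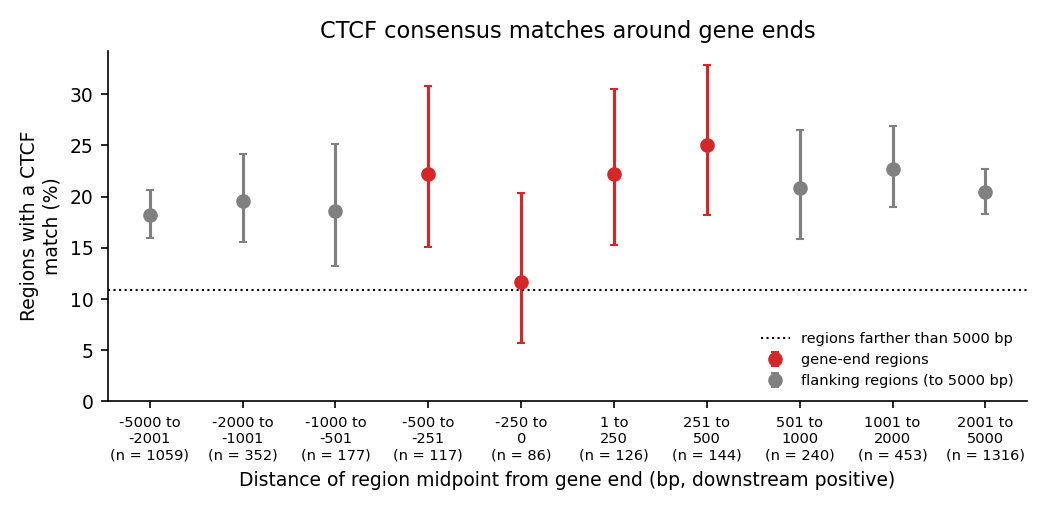
Share of shared open regions with a CTCF consensus match in their central 200 bp, by signed distance of the midpoint from the gene end, with exact 95% binomial intervals, for gene-end regions (red) and flanking regions (grey). The dotted line is the share in regions farther than 5000 bp (10.9%), and the bin just before the end is the lowest at 11.6%.

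How the consensus varied with strength depended on the library. In steps of 25% of the 473, from the weakest to the strongest by mean log2 value, 10 of 118 (8.47%), 29 of 118 (24.6%), 30 of 118 (25.4%) and 31 of 119 (26.1%) had it. Ranked by replicate 1 alone, the shares were 16.1%, 23.7%, 27.1% and 17.6%, so the weakest and the strongest were close. Ranked by replicate 2 alone, they were 5.93%, 16.1%, 28.8% and 33.6%. The other regions outside promoters and coding sequence gave 10.7%, 13.8%, 13.1% and 9.03% by replicate 1, and 2.60%, 6.10%, 13.1% and 24.8% by replicate 2. An increase with strength was thus seen in replicate 2 and not in replicate 1.

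The libraries differed more at CTCF-matching gene-end regions than at the others. Their median value was 0.895 in replicate 1 and 1.81 in replicate 2, against 0.880 and 1.29 for gene-end regions without a match. The log2 difference (replicate 1 minus replicate 2) had a median of -1.15 with a match (quartiles -1.46 and -0.73) and -0.47 without one (-0.76 and -0.15). Of the 100 regions with a match 98 were higher in replicate 2, against 319 of 373 without (85.5%). The medians with and without a match were close in replicate 1 and apart in replicate 2.

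The 8 regions whose matches are printed above were all higher in replicate 2. Besides Thbs4 and Dand5, Acvrl1, a receptor of the TGF-beta superfamily, had 2.45 in replicate 1 and 4.44 in replicate 2 at a site past its end. Mtch2, a gene of the mitochondrial outer membrane, had 2.31 and 3.83 at a site over its last bases. Sncb, which encodes beta-synuclein, had 1.97 and 4.40. Pitx3, a transcription factor of midbrain dopamine neurons, had 1.54 and 4.57, Ripor1 had 2.15 and 4.82, and 1700029H14Rik had 2.97 and 4.30.

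The gap was not special to gene ends. In flanking regions the medians were -1.18 with a match and -0.45 without, and in remote ones -1.16 and -0.33. With 1 library on each side, the mouse tissue sampled and the library made from it cannot be told apart. The inferred depth also differed between the libraries, and its part in the result was not tested.

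**Figure D5:**
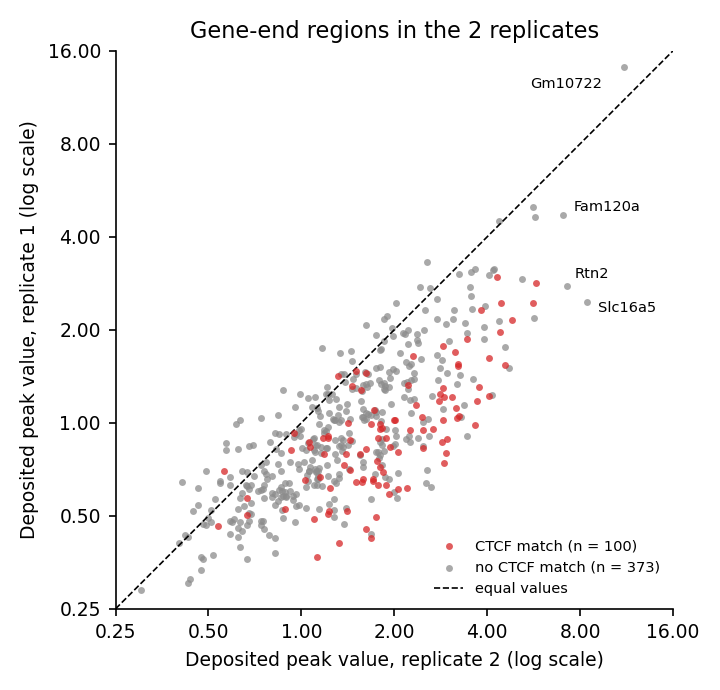
Deposited peak value of each of the 473 gene-end regions in replicate 1 (vertical) and replicate 2 (horizontal), on log axes, for regions with (red, n = 100) and without (grey, n = 373) a CTCF match. The points with a match lie farther under the line of equal values, with a median log2 difference of -1.15 against -0.47.

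Across all 473, the median log2 difference was -0.57, against -0.58 in flanking regions, -0.39 in remote ones and -0.44 over all autosomal shared regions. Values were higher in replicate 2 for 417 (88.2%), against 84.6% of all. After the median over all regions was taken off, 50 gene-end regions (10.6%) were over 1 log2 unit apart, against 10.9% of flanking regions, 7.19% of remote ones, 1.48% of promoters and 5.75% of all autosomal shared regions. Of the 50, 45 were higher in replicate 2 and 26 of these had a CTCF match. As a description over the 473 regions, which share their libraries and are not independent, Pearson's r between the replicates was 0.765 on log2 values and Spearman's rho was 0.734.

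The largest differences after centring were towards replicate 2. Tnni1, the slow-muscle troponin I gene, had 0.621 in replicate 1 and 2.64 in replicate 2. Upk3b, a uroplakin gene, had 0.636 and 2.54, and Thegl had 0.422 and 1.68 at a CTCF-matching site. Tnni1 and Upk3b had no promoter peak in the shorter list of either library. Towards replicate 1 the farthest were Ppp2r3d, a phosphatase regulatory subunit gene, with 1.02 and 0.633, Tmem184b with 0.994 and 0.615, and Togaram1, a gene of ciliary microtubules, with 0.641 and 0.410. All 6 differ between the libraries by more than the usual offset, and 1 sample a side gives no test of it. The Tmem184b region touched 2 footprints in replicate 1 and 0 in replicate 2, and the Ppp2r3d region touched 0 in either.

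By the count in the replicate with fewer footprints, 9 regions had 6 or more. Bcat2 and Rmnd5b, a ubiquitin ligase subunit gene, were first, with 7 in replicate 1 and 9 in replicate 2 at Rmnd5b. Of the 7 regions tied at 6, those named by the tie rule were Steap3, an iron reductase gene, with 8 and 6, Ccdc106 with 6 and 8 and the collagen receptor gene Itga11 with 6 in each. Their values were 2.44 and 2.03 at Rmnd5b, 1.02 and 1.35 at Steap3, 3.15 and 4.21 at Ccdc106 and 3.32 and 2.56 at Itga11. Wider regions can hold more footprints, and the Rmnd5b region was 660 bp wide, against a median of 220 bp. The Ccdc106 region held a RefSeq start site and lay 609 bp from the nearest GENCODE one.

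Some gene-end regions were rich in CpG. In 44 of 473 (9.30%) the central 200 bp were at least 50% G and C with an observed-to-expected CpG ratio of at least 0.6, against 8.03% of flanking regions, 4.74% of remote ones and 69.7% of promoters. Their median value was 1.35 in replicate 1 and 2.31 in replicate 2, against 0.870 and 1.37 for the other 429. Fam120a, Bcat2 and Sec14l2 were among them. The 44 held a median of 12 CpG sites in that window, and 11 reached the promoter median of 16. A RefSeq start site lay within 500 bp of 7 of the 44, and 5 had a CTCF match.

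The other motifs lay closer to the flanking regions than to promoters. The E-box CAGNTG, bound by neuronal basic helix-loop-helix factors, was in 55.4% of gene-end regions, 55.6% of flanking regions and 55.2% of remote ones. The AP-1 site TGANTCA of Fos and Jun dimers was in 12.1% (9.26% to 15.3%), against 13.0% of flanking and 16.4% of remote regions. The GC box GGGCGGG was in 6.77% (4.67% to 9.42%), against 6.17% of flanking regions, 3.65% of remote ones and 34.9% of promoters. The cyclic AMP element TGACGTCA was in 1 region. The ETS site CCGGAAG was in 1.48%, against 11.6% of promoters, and the NRF1 site GCGCNTGCG in 0.846%, against 10.1% of promoters. The EGR site GCGNGGGCG and the RFX site GTTGCCATG were each in 1.06%. The MEF2 consensus was in 2.75%, and AATAAA anywhere in the window in 13.5%, against 10.5% of flanking regions and 13.5% of remote ones. All were counted on both strands in 200 bp. Read backwards without complementing, the strings were less frequent at gene ends for the E-box (19.0%), AP-1 (6.34%), MEF2 (1.06%), NRF1 (0.211%) and RFX (0%). They were more frequent than the motif for ETS (4.23%), EGR (1.27%) and the cyclic AMP element (1.27%). The ETS and cyclic AMP motifs hold a CpG that their reversed strings lack. The reversed RFX string gains one, and that of NRF1 holds more. At promoters ETS was in 11.6% against 3.81% reversed, and the cyclic AMP element in 2.83% against 0.494%. For EGR, whose reversed string keeps its CpG sites, these were 8.62% and 8.80%. Where CpG sites change, a reversed share is thus no chance level. AATAAA reversed was in 12.7%, close to the motif. The GC box reads the same backwards, so it has no such comparison.

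Regions close to the 500 bp limit were these. Just inside 500 bp lay those of Cldn14, a tight-junction claudin gene, at 500 bp past the end with 0.949 in replicate 1 and 2.47 in replicate 2, Marveld1 at 498 bp past it with 1.14 and 3.36, and Hes7 at 498 bp before it with 2.04 and 3.91. Odf3l2, also at 498 bp past its end, had 0.855 and 2.02. Just outside lay those of Pdlim4, 1 bp too far past the end, with 0.661 and 0.909, 4930435E12Rik at 505 bp before it with 0.403 and 1.30, and Fjx1 at 505 bp before it with 0.343 and 0.481.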

How the data were processed

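Per library there are 2 peak lists, a footprint list and an interval list with false discovery rates, all in mm10 coordinates per the deposited descriptions. The peak values are a signal that the authors deposited. No source used here states the caller, the aligner or the normalization. Intervals carry an FDR (q-value), and the deposited lists hold only values up to 0.05 (the highest are 0.0499864 and 0.0499516). All footprints carry the same p-value threshold of 0.01, as deposited.

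The shorter peak lists (86601 regions in replicate 1 and 88482 in replicate 2) were merged, joining peaks that touch. A region took the value of its strongest peak in each library. The annotation was GENCODE M21, with RefSeq for a check and for the GRCm38.p6 sequence. The gene end was the last base of the gene on its strand. Motifs were sought on both strands of 200 bp around the midpoint. Python 3.11.15, pandas 2.3.3, scipy 1.17.1 and bedtools 2.31.1 were used. In simulated lists the rule recovered 200 of 200 placed regions, with 0 false members. They were placed at ends clear of start sites, coding sequence and other coding gene ends. The same rule scored them, so this checks the code and not its accuracy at crowded ends.

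With 1 group, no test was run. Shares carry exact (Clopper-Pearson) 95% intervals and counts exact Poisson ones, which cover counting error only. The regions, gene lists and motifs were chosen with earlier results of these data known. Named regions are the 10 with the highest mean log2 value, those at list genes (at most 3 a list), the 3 with the largest centred difference each way, the 5 with the most footprints in the replicate with fewer (ties by replicate 1, then by mean log2 value) and 3 on each side of 500 bp (ties by start). Alternatives varied the peak list, peak strength, overlap, window, start-site distance, coding rule, definition of the end and the library left out.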

Additional observations from a re-analysis of the deposited data

How the results depend on the processing

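Over 126 values under alternative settings, 101 moved by less than the spread or interval of the main value (counts by less than 1.5 times), and 25 by more. The density ratio passed from below 1 to above it in 1 of them, with the stronger 50% of peaks. The number of regions (473) became 785 with the longer peak list, 281 with the stronger 50% of peaks, 212 with a window of 250 bp, 890 with one of 1000 bp and 745 with the ends of all coding transcripts. The number of genes (504) became 814, 314, 218, 922 and 764 under these 5 settings. The median in replicate 2 (1.43) was 1.04 with the longer list and 1.86 with the stronger 50%. The density ratio (0.977) was 0.999 with the longer list, 1.04 with the stronger 50%, 0.939 with 2000 bp kept from start sites and 0.9502 with no base allowed in coding sequence. Under the start-site and coding settings only the counted midpoints followed the new rule, while the eligible sequence stayed as in the main setting. Those ratios are thus not densities under these settings. The ratio used 500 bp throughout, so the window settings could not move it, yet they are among the 101. The share touching a footprint in both replicates (94.1%) was 80.5% with the longer list and 98.6% with the stronger 50%. The share of genes with a promoter peak (62.3%) was 73.5% with the longer list and 69.1% with the ends of all coding transcripts. The more inclusive lists and wider windows hold more regions by construction. For the other shifts the cause was not tested.

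Taking the regions from a single library gave 608 to 701 regions, 632 to 726 genes, a density ratio of 0.974 to 1.00, a footprint share of 88.7% to 93.6% and a promoter share of 66.8% to 67.2%, with footprints and promoters of that library alone. The CTCF share was 21.7% without replicate 1 (11.9% in regions over 5000 bp from an end) and 17.4% without replicate 2 (8.19%). Under each of the settings with both libraries, the median log2 difference of regions with a CTCF match lay below that of regions without one. Keeping abutting peaks apart, a setting chosen after seeing the data, gave 474 regions. The longer list holds the same peak, with the same value, at the named regions. Ranking by each library alone was also chosen after seeing the data, and the increase of the CTCF share with strength was then seen in replicate 2 but not in replicate 1. No paired analysis was possible because there is 1 group and no test. At 34 to 58 reads for the weakest regions, a low value rests on few reads if 1 step is 1 read.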

Other observations

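The share of coding genes with an open end was 2.42% over all autosomes and varied by chromosome. It was 3.46% on chromosome 13 (29 regions), 3.36% on chromosome 11 (53 regions) and 3.17% on chromosome 8 (31 regions). The lowest were 1.40% on chromosome 12 (10 regions) and 1.63% on chromosome 7 (32 regions). These are the extremes apart from chromosome 18, and whether they differ beyond counting error was not tested. Chromosome 18 had 5.65%, with 8 regions, since 21 genes of the gamma protocadherin cluster share an end. The region at Ddn, the gene of the dendritic protein dendrin, had 1.76 in replicate 1 and 4.57 in replicate 2 in its 3′ UTR, against 2.86 and 2.99 at its promoter. It was singled out after its values were seen.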
